A study of Mus musculus with 15 samples.

Results

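Heat shock and chaperone genes were followed in the podocyte fraction of mouse kidney, in a comparison of young mice with aged mice given IgG2a or aPD1ab. The set was chosen by name and holds 10 genes of the 46078 in the count table: Hspa1a, Hspa1b, Hspa5, Hspa8, Hsp90aa1, Hsp90ab1, Hspb1, Hsph1, Dnajb1 and Hsf1. All 10 were found and passed the filter on low counts in every comparison. The mice were male C57BL/6J. Young mice were 4 months old and received no injection. Aged mice were 21 months old and received either the anti-PD-1 antibody RMP1-14 (aPD1ab) or the isotype control antibody 2A3 (IgG2a), at 12 mg/kg each week for 8 weeks, although the titles of the aPD1ab samples give 47 days. Because young mice were not injected, age and injection cannot be told apart between young and aged mice. Below, "with age" stands for aged IgG2a against young mice. The labels list 5 mice per group. Numbers beside the published sample plot tied 13 columns of the count table to a group, which gave 5 libraries of young mice, 4 of aged IgG2a mice and 4 of aged aPD1ab mice. The fraction came from kidney cortex that was digested with enzymes at warm temperature and sorted with anti-nephrin antibodies and magnetic beads.

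Heat shock proteins are molecular chaperones that bind unfolded proteins and help them fold, refold or be degraded. HSP70 proteins work in cycles with J-domain partners that hand over clients and with exchange factors that release them, while HSP90 proteins finish the folding of kinases and steroid receptors. The transcription factor HSF1 is held inactive by chaperones in unstressed cells and drives their genes after heat or other protein damage, and the chaperone BiP of the endoplasmic reticulum (ER) answers to a separate unfolded protein response. In podocytes, the postmitotic cells that form the filtration slits, chaperones are known as markers of protein and ER stress. Inducible heat shock genes are also known to rise within minutes when tissue is warmed and dissociated.

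Libraries held 21962193 to 27685122 counted reads in young mice, 20500755 to 32717100 in aged IgG2a mice and 19912969 to 31493051 in aged aPD1ab mice. Levels are given as CPM, the counts divided by library size and scaled with edgeR's TMM factors. Of these libraries, 2 stood apart from their groups. On the first principal component (40.7% of the variance) aged IgG2a replicate 1 lay at -16.7, whereas replicates 2 to 4 of that group ranged from 71.7 to 84.5. Aged aPD1ab replicate 2 lay at -64.6, whereas the other aPD1ab libraries lay at -14.2 or above, and it held the lowest podocyte, macrophage and lymphocyte and the highest proximal tubule marker sums of all 13 libraries. Results that rest on these libraries are given with and without them, apart from correlations with other genes and gene lists. The podocyte marker Nphs1, which encodes nephrin, was detected in all libraries. The summed CPM of 13 podocyte markers was nevertheless only 385 to 1759, beside 1394 to 17751 for 15 proximal tubule markers and 4203 to 19158 for 11 macrophage markers. These are bulk libraries, in which fewer cells of a type and less RNA per cell cannot be told apart.

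The promoters are shown for the members that the results turn on and for the sites through which heat shock factors and the ER stress response are known to act. RefSeq promoter sequences (build GRCm38.p6) were matched for 6 of the 10 members, those other than Hspa8, Hsp90aa1, Hsp90ab1 and Hsf1. Each of the first 3 lines gives the 170 bases before the annotated start, written in the direction of the gene, for Hspa1a (chr17:34972157-34972326, minus strand), Hspa1b (chr17:34959239-34959408, minus strand) and Hspb1 (chr5:135887749-135887918, plus strand). Capitals mark a heat shock element, searched on both strands as GAANNTTC or TTCNNGAA. The other lines give 30 bases round a longer element in Hsph1 (chr5:149636279-149636308, minus strand), where capitals mark the alternation TTCNNGAANNTTC, and in Hspa5 (chr2:34772020-34772049, plus strand), where capitals mark the ER stress element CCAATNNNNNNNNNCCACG.
Hspa1a: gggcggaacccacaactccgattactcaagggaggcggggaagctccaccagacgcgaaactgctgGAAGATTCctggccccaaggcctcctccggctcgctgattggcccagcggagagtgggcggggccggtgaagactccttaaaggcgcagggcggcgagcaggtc
Hspa1b: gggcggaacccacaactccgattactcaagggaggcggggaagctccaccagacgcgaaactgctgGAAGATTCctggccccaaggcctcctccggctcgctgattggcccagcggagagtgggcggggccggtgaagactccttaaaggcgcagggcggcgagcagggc
Hspb1: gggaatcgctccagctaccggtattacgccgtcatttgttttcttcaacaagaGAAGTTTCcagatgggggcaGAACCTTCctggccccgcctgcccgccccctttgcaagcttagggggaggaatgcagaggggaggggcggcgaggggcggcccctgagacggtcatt
Hsph1: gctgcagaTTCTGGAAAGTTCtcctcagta
Hspa5: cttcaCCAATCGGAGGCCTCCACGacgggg

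The printed windows of Hspa1a and Hspa1b are identical at 169 of 170 bases, and both hold 1 heat shock element, at bases -104 to -97 before the start. Hspb1 holds 2. Hsph1 holds the longer form just after the first of its listed starts (bases 16 to 28, the start being base 1). Counted from its other listed start, the same element lies at bases 37 to 49. The short element is common, in 15.1% of 32851 mouse promoter windows of 300 bases, whereas the longer form is in 0.603% and the ER stress element in 0.119%. The ER stress element of Hspa5 contains a CCAAT box, a motif that by itself is in 37.4% of the windows. The short element was not found in the windows of Dnajb1, which says only that these letters are absent there.

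Members differed widely in abundance, compared here as CPM per kilobase of exon (mean ± SD over 13 libraries). The constitutive HSP70 Hspa8 and the constitutive HSP90 Hsp90ab1 were the most abundant, at 388 ± 106 and 369 ± 77.3, ranks 68 and 73 of 15790 genes. Hspa8 exceeded Hsp90ab1 in 8 of 13 libraries, so their order was not stable. Hspa5 (BiP) followed at 154 ± 33.5, then the inducible Hspa1b at 137 ± 120 and the inducible HSP90 Hsp90aa1 at 126 ± 42.1. These 3 changed places between libraries: Hspa5 exceeded Hspa1b in 8 and Hspa1b exceeded Hsp90aa1 in 7. Hspa1a was at 79.9 ± 67.4 and exceeded Dnajb1, at 54.7 ± 26.9, in 8 libraries. Hspb1 (21.9 ± 10.5) and Hsph1 (15.5 ± 6.77) were lower. Hsf1, at 3.93 ± 0.476, was the least abundant by this measure and ranked 7619. The order depends on the length used, the union of all annotated exons of a gene. This was 1031 bases for Hspb1, 7266 for Hsph1 and 7099 for Hsf1. In CPM without length, Hsph1 (113) and Hsf1 (27.9) were above Hspb1 (22.6).

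**Figure D1:**
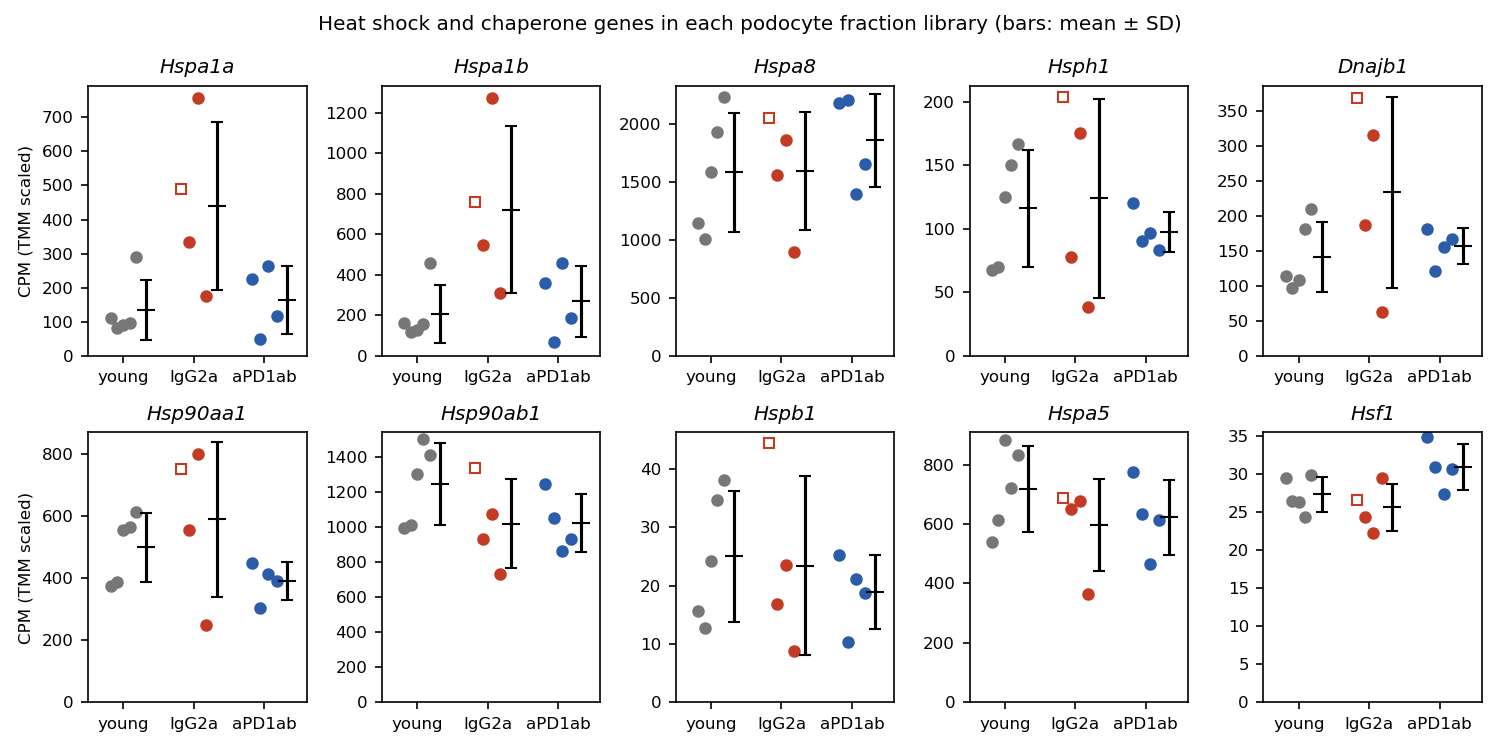
CPM (y axis, from 0, TMM scaled) of the 10 members in young, aged IgG2a and aged aPD1ab libraries (x axis), 1 point per library, with black bars for mean ± SD and an open square for aged IgG2a replicate 1. In Hspa1a and Hspa1b 3 of 4 aged IgG2a libraries lie above all young libraries, whereas the groups overlap in every member.

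The members that differed between aged IgG2a and young mice were the stress-inducible HSP70 genes Hspa1a and Hspa1b, which encode almost the same protein. On GRCm38 chromosome 17, Hspa1a (ENSMUSG00000091971) lies at 34969190 to 34972156 and Hspa1b (ENSMUSG00000090877) at 34956436 to 34959238. Hspa1a was at 112, 81.7, 89.3, 97.2 and 289 CPM in young replicates 1 to 5 and at 489, 334, 756 and 176 CPM in aged IgG2a replicates 1 to 4. Aged IgG2a replicates 1 to 3 lay above every young library, while replicate 4 lay below young replicate 5. Hspa1b repeated this order, at 162, 118, 129, 159 and 461 CPM in young mice and 762, 546, 1272 and 309 CPM in aged IgG2a mice. Means were 134 ± 87.4 and 439 ± 247 CPM for Hspa1a and 206 ± 144 and 722 ± 411 CPM for Hspa1b (SD, n = 5 and n = 4).

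Hspa1a was 3.44-fold higher in aged IgG2a than in young mice (log2 fold change 1.78, SE 0.47, 95% interval 0.73 to 2.83, edgeR adjusted p = 0.0326). Hspa1b was 3.69-fold higher (log2 fold change 1.88, SE 0.49, 95% interval 0.79 to 2.97, edgeR adjusted p = 0.0311). These were 2 of 10 members called, both higher, beside 17.4% of the 15953 genes tested called in either direction (9.05% higher, 8.38% lower), and both come from near-identical genes, so the count is not a result about the members as a set. Without aged IgG2a replicate 1 the log2 fold changes were 1.73 (edgeR adjusted p = 0.0323) and 1.86 (edgeR adjusted p = 0.0279), when 45.6% of genes were called (22.1% higher, 23.5% lower). The CPM of the groups overlapped for every member in every comparison, beside 14.4% of 15846 genes without overlap with age, 11.4% with aPD1ab against IgG2a and 22.1% against young. The call was narrow. It was lost when any of young replicates 1 to 4 was left out (edgeR adjusted p between 0.0646 and 0.0803 over both genes) and without aged IgG2a replicate 2 (adjusted p = 0.0688 and 0.067) or replicate 3 (adjusted p = 0.101 and 0.0975), although the direction held in each. Over all genes the share called was 3.4% to 8.6% in those settings.

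With aPD1ab, Hspa1a was at 227, 48.6, 264 and 118 CPM and Hspa1b at 360, 67.7, 460 and 189 CPM in replicates 1 to 4. Replicates 2 and 4 lay below every aged IgG2a library and replicates 1 and 3 within their range. The means of 164 ± 98.9 and 269 ± 175 CPM (SD, n = 4) gave log2 fold changes against aged IgG2a of -1.44 (95% interval -2.72 to -0.15, edgeR adjusted p = 0.145) for Hspa1a and -1.45 (95% interval -2.80 to -0.09, edgeR adjusted p = 0.159) for Hspa1b. By edgeR none of the 10 members was called, and percent called over all 15530 genes was 0%, with 28% of genes and 2 members at an unadjusted p under 0.05. DESeq2 called 15.9% of genes and Hspa1a (adjusted p = 0.0489) but not Hspa1b (adjusted p = 0.0569). limma voom with sample quality weights called 39.7% of genes and both members (adjusted p = 0.0495 and 0.0479).

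When aged IgG2a replicate 1 was left out, edgeR called 30.4% of genes (17.1% higher, 13.2% lower) and 0 of 10 members, with log2 fold changes of -1.41 for Hspa1a (adjusted p = 0.118) and -1.44 for Hspa1b (adjusted p = 0.127). Aged aPD1ab replicate 2, which stood apart from its group, held the lowest value of both genes. Without it alone the log2 fold changes were -1.14 and -1.13 (edgeR adjusted p = 0.283 and 0.289), and without both libraries -1.10 and -1.12 (edgeR adjusted p = 0.189 and 0.182), when 28.2% of genes were called (15.6% higher, 12.6% lower). With only aged IgG2a replicate 1 left out, DESeq2 called 38% of genes and both members (adjusted p = 0.0397 and 0.0429). In that setting limma voom with quality weights called 39.4% of genes and neither member (adjusted p = 0.0805 and 0.0776). Neither method was run without aged aPD1ab replicate 2. Against young mice, aPD1ab gave log2 fold changes of 0.31 for Hspa1a (95% interval -0.79 to 1.42) and 0.41 for Hspa1b (95% interval -0.79 to 1.60), and 0 of 10 members were called beside 22.4% of genes (12.4% higher, 9.97% lower). Without aged aPD1ab replicate 2 these log2 fold changes were 0.62 (edgeR adjusted p = 0.306) and 0.73 (edgeR adjusted p = 0.263). The comparisons with aged IgG2a share those libraries, so a high value there enters both.

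The counts of these neighbours cannot be fully separated. Of all 100-base windows in the exons, 47.1% of Hspa1a and 49.9% of Hspa1b occur in the other gene, and how reads with several matches were counted is not given in the sources used here. The ratio of Hspa1b to Hspa1a counts stayed between 1.39 and 1.75 in all 13 libraries. Summing both genes gave log2 fold changes of 1.85 for age, at an adjusted p of 0.0324 by edgeR, and of -1.44 for aPD1ab, at 0.156. Gm20481, on the opposite strand, covers 19.0% of the exon bases of Hspa1a and had 0 counts in all libraries.

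**Figure D2:**
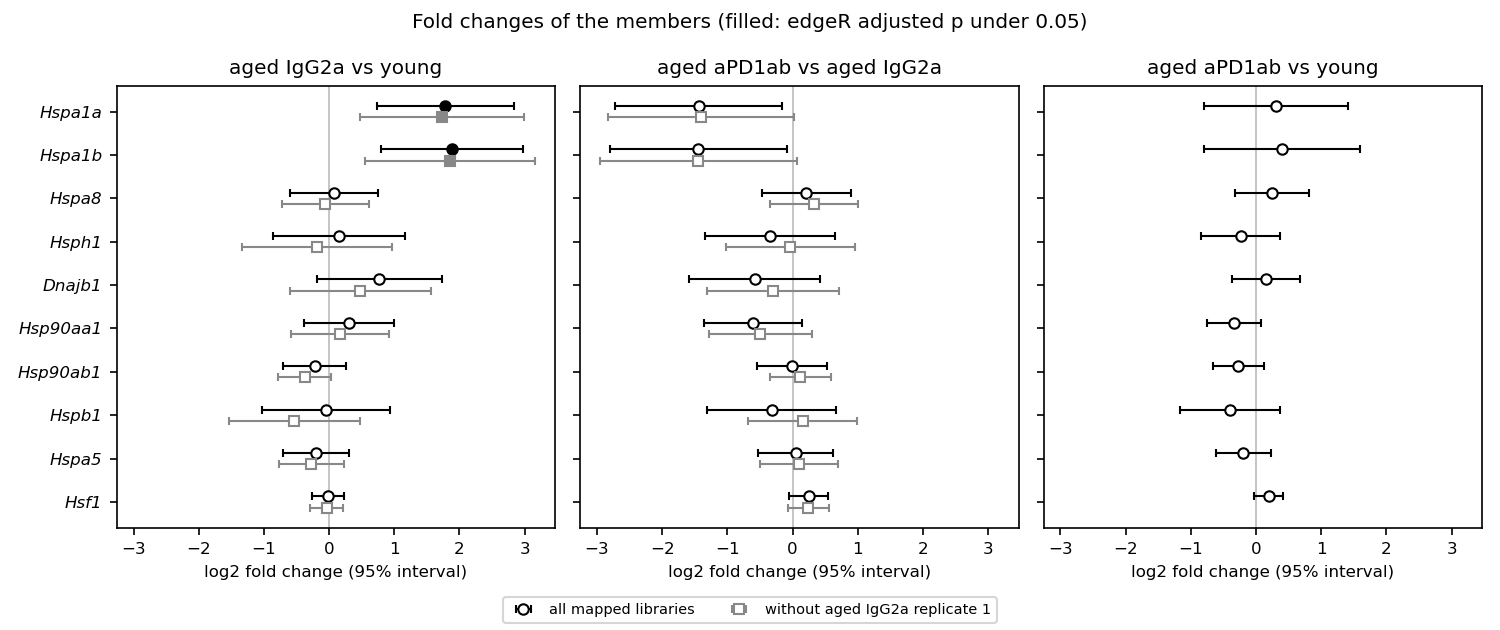
Log2 fold changes (x axis) of the 10 members (y axis) with 95% intervals from edgeR, in the 3 comparisons, for all mapped libraries (circles) and without aged IgG2a replicate 1 (squares), with filled symbols for an adjusted p under 0.05. Filled symbols appear for Hspa1a and Hspa1b in aged IgG2a against young, and the intervals of the other 8 members cross 0 in each comparison.

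The HSP90 genes and Hspa8 were not called in any comparison. Hsp90aa1, the inducible HSP90, was at 375, 388, 555, 567 and 614 CPM in young, 754, 557, 800 and 249 CPM in aged IgG2a and 451, 305, 415 and 393 CPM in aged aPD1ab libraries. The aged IgG2a libraries thus held both the highest and the lowest value, and the log2 fold changes were 0.30 with age (95% interval -0.39 to 0.99) and -0.61 with aPD1ab (95% interval -1.36 to 0.15). Hsp90ab1, its constitutive partner, was at 1244 ± 232, 1019 ± 254 and 1023 ± 167 CPM in young, aged IgG2a and aged aPD1ab mice (SD, n = 5, 4 and 4). Its log2 fold changes were -0.22 with age (95% interval -0.70 to 0.25) and -0.01 with aPD1ab against IgG2a (95% interval -0.54 to 0.53). Hspa8, which folds newly made proteins and uncoats clathrin vesicles, was at 1580 ± 515, 1592 ± 505 and 1858 ± 399 CPM. Its log2 fold change with age was 0.08 (95% interval -0.60 to 0.75), an interval that leaves room for changes of either sign.

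Dnajb1, the J-domain partner that activates HSP70, was at 115, 96.6, 109, 182 and 210 CPM in young mice and at 369, 188, 316 and 62.9 CPM in aged IgG2a mice. Replicates 1 and 3 of aged IgG2a lay above all young libraries and replicate 4 below all of them, and the log2 fold change was 0.77 (95% interval -0.19 to 1.73, edgeR adjusted p = 0.222), or 0.48 without replicate 1 (adjusted p = 0.433). With aPD1ab it was at 182, 122, 156 and 168 CPM, a narrower range. Hsph1, the HSP110 exchange factor that releases clients from HSP70, was at 67.4, 69.7, 125, 150 and 167 CPM in young, 204, 77.9, 175 and 38.2 CPM in aged IgG2a and 120, 90.6, 96.4 and 83.4 CPM in aged aPD1ab mice. Its log2 fold change with age was 0.15, and -0.18 without aged IgG2a replicate 1. Hspb1, a small heat shock protein that binds actin filaments and unfolded clients, was at 25.0 ± 11.2, 23.4 ± 15.3 and 18.9 ± 6.31 CPM. Its highest value of 44.4 CPM was in aged IgG2a replicate 1, and without that library the log2 fold change with age went from -0.04 to -0.53 (edgeR adjusted p = 0.349).

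Hspa5 encodes BiP, the HSP70 of the ER. It was at 539, 612, 882, 722 and 832 CPM in young, 689, 651, 678 and 365 CPM in aged IgG2a and 776, 633, 467 and 612 CPM in aged aPD1ab mice. Aged IgG2a replicate 4 was the lowest of all 13 libraries, and the other 3 aged IgG2a libraries lay inside the young range. Between aged IgG2a and young mice the log2 fold change was -0.20 (95% interval -0.71 to 0.30, edgeR adjusted p = 0.551), and aPD1ab against IgG2a gave 0.05 (95% interval -0.53 to 0.63). Hsf1 was at 27.3 ± 2.34 CPM in young, 25.6 ± 3.12 CPM in aged IgG2a and 30.9 ± 3.06 CPM in aged aPD1ab mice. Of the aged aPD1ab libraries, 3 lay above all aged IgG2a libraries and above all young ones. The log2 fold change against aged IgG2a was 0.25 (95% interval -0.05 to 0.55, edgeR adjusted p = 0.242) and against young 0.19 (95% interval -0.03 to 0.42, edgeR adjusted p = 0.186), while with age it was -0.01 (95% interval -0.26 to 0.23).

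Members varied more between mice of 1 group than most genes did. The SD of log2 CPM within groups was 0.96 for Hspa1b and 0.91 for Hspa1a, above 99.0% and 98.8% of the 9501 genes with a mean of at least 10 CPM, for which the median was 0.23. It was 0.75 for Hspb1, 0.74 for Hsph1 and 0.72 for Dnajb1, each above at least 96.1% of genes. Hsp90ab1 (0.29), Hspa5 (0.35), Hspa8 (0.46) and Hsp90aa1 (0.49) were between, and Hsf1 (0.15) was below the median. Without aged IgG2a replicate 1 the values were 1.01 for Hspa1b, 0.67 for Dnajb1 and 0.15 for Hsf1, beside a median of 0.19. Without aged aPD1ab replicate 2 they were 0.79 for Hspa1b, 0.77 for Hspa1a and 0.78 for Hsph1, beside a median of 0.22.

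The members other than Hsf1 were positively correlated with each other between mice of a group. With group means removed, Pearson's r of log2 CPM over 13 libraries was above 0.5 in 30 of the 36 pairs without Hsf1, and in 34 when aged aPD1ab replicate 2 was left out. It was 0.94 for Hsp90aa1 with Hsph1 and with Dnajb1, 0.93 for Hspa8 with Hsp90ab1 and 0.89 for Hspb1 with Dnajb1. Hspa1a and Hspa1b were at 1.00 with each other, at 0.71 and 0.67 with Dnajb1, and at 0.36 and 0.31 with Hspa5. Hsf1 was below 0 with all 9 others, down to -0.46 with Hsp90aa1. These are descriptions over 13 points that share library scaling and, within 1 library, cell makeup. Aged IgG2a replicate 4 was the lowest of its group in all members but Hsf1, and counts without that library were not computed. The share of other gene pairs above 0.5 was not computed either, so the count cannot be set beside a background.

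**Figure D3:**
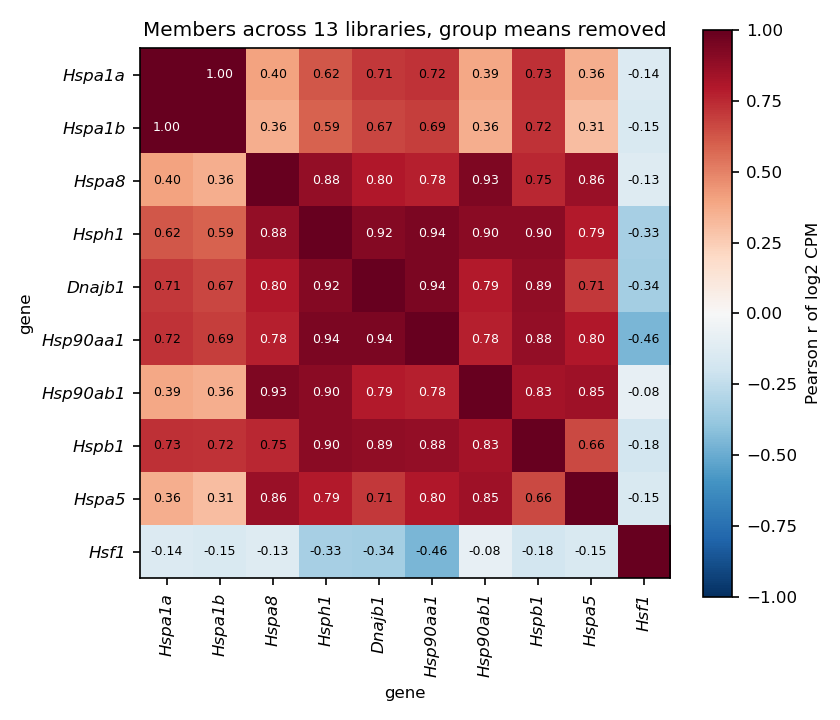
Pearson's r of log2 CPM between members (both axes) over 13 libraries after removal of group means, from -1 (blue) to 1 (red). Hsph1, Dnajb1, Hsp90aa1 and Hspb1 form a block between 0.88 and 0.94, whereas the row of Hsf1 lies between -0.46 and -0.08.

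Among 9477 genes outside the set, those most like each member over the 13 libraries (Pearson's r of log2 CPM) included other chaperone partners. Dnaja1, a J-domain protein, was first for Hsph1 (0.95) and Hsp90aa1 (0.884). Bag3, an exchange factor that links HSP70 to autophagy, was first for Dnajb1 (0.949), followed by Fos (0.908) and Btg2 (0.906), both immediate early genes. The HSP90 activators Ahsa2 (0.895) and Ahsa1 (0.863) were among the nearest to Hspa8, and the HSP90 cochaperone Chordc1 (0.914) was near Hsp90ab1, after Ift172 (0.943). Rgs2, Tent5c and Btg1 (0.864, 0.864 and 0.863) were nearest to Hspa1a, Eaf1 (0.839) to Hspa5, Taf3 (0.871) to Hspb1 and Hdac10 (0.891) to Hsf1.

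Immediate early genes, such as Fos, Jun and Egr1, respond within minutes to stimuli that include warm tissue digestion, and they varied with several members. The summed CPM of 23 such genes was 7387 to 11391 in young and 8013 to 13875 in aged aPD1ab libraries. In aged IgG2a replicates 1 to 4 it was 14964, 13640, 17604 and 4628, so replicate 4, the lowest of its group in all members but Hsf1, was also lowest here. Over the 13 libraries the sum was correlated with Dnajb1 at r = 0.89 and, with group means removed, also at 0.89. Within groups r was 0.84 for Hsp90aa1, 0.71 for Hsph1, 0.70 for Hspa1a, 0.65 for Hspa1b and -0.26 for Hsf1. Of the 23 genes, 1 was called higher with age (Myc, log2 fold change 0.99), beside 9.05% of all genes called higher. The median log2 fold change of the list was 0.58, beside 0.04 over all genes. Their part in the difference of Hspa1a and Hspa1b was not tested.

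**Figure D4:**
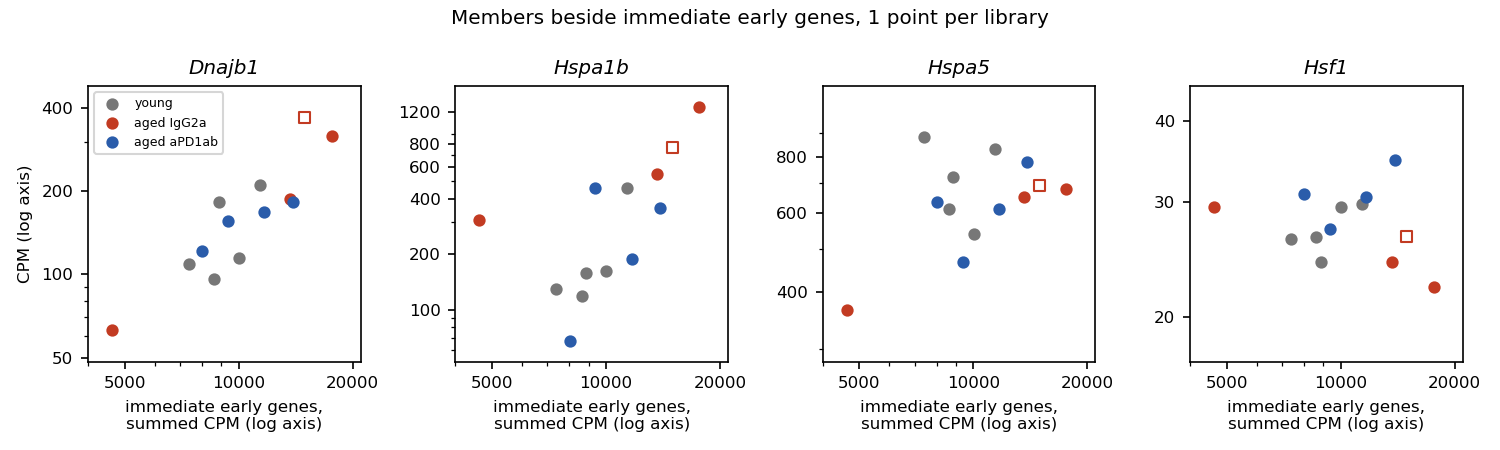
CPM of Dnajb1, Hspa1b, Hspa5 and Hsf1 (y axes, log) against the summed CPM of 23 immediate early genes (x axis, log), 1 point per library coloured by group, with an open square for aged IgG2a replicate 1. Dnajb1 lies at 62.9 CPM at the lowest sum, 4628, and at 369 CPM at a sum of 14964, whereas Hsf1 lies between 22.2 and 34.8 CPM throughout.

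Summed levels of markers of other cell types differed between the libraries as well. Proximal tubule markers summed to 8434 to 13269 CPM in young libraries, 6301 in aged IgG2a replicate 1, 1394 to 2008 in the other aged IgG2a libraries and 6201 to 17751 with aPD1ab, the highest in aged aPD1ab replicate 2. Macrophage markers summed to 5104 to 8549, 6572, 15555 to 19158 and 4203 to 12948 CPM in the same order. Lymphocyte markers summed to 97.4 to 207 CPM in young, 342 to 996 in aged IgG2a and 66.3 to 590 in aged aPD1ab libraries. Over the 13 libraries Hspa1a had r of 0.69 with macrophage, 0.71 with lymphocyte and -0.68 with proximal tubule markers, and 0.47, 0.53 and -0.26 with group means removed. The highest r with group means removed was 0.67, with podocyte markers, which were at -0.05 before. Endothelial markers went from -0.03 to 0.46, mesangial and smooth muscle markers from -0.37 to 0.15 and distal markers from 0.06 to 0.20. Aged aPD1ab replicate 2 held the lowest Hspa1a value (48.6 CPM) as well as the marker extremes given above. These r, and those with immediate early genes, were not computed without that library. The part of these markers in the difference was not tested.

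The wider chaperone machinery was described with lists of its other genes. Of 7 other HSP70 and HSP110 genes tested, 1 fell with age and 0 rose, beside 8.38% and 9.05% of all genes: Hspa12a, a distant HSP70 relative, was at 31.0 ± 2.74 CPM in young and 10.3 ± 1.94 CPM in aged IgG2a mice (log2 fold change -1.51, edgeR adjusted p = 0.000687). After removal of aged IgG2a replicate 1, Hspa12a, Hspa4l and Hspa4 fell with age by 1.62, 1.00 and 0.33 on the log2 scale, beside 23.5% of genes called lower, and Hspa12a rose with aPD1ab by 0.94, beside 17.1% called higher. Against young mice aPD1ab gave 4 of the 7 lower (Hspa12b at -0.92, Hspa4l at -0.79, Hspa12a at -0.70 and Hspa13 at -0.66) and 0 higher, beside 9.97% and 12.4% of genes. Of 16 HSP90 cochaperones, 0 were called with age by edgeR, beside 17.4% of genes. At an unadjusted p under 0.05, 2 were lower, beside 36.2% of genes in either direction. Without aged IgG2a replicate 1, 3 of the 16 fell, a share no higher than the 23.5% of all genes, led by the immunophilin Fkbp4 at -1.002 (edgeR adjusted p = 5.21e-05). With aPD1ab 5 of the 16 then rose, beside 17.1% of genes, again led by Fkbp4 at 1.23 (edgeR adjusted p = 0.00668). When aged aPD1ab replicate 2 was left out as well, 3 rose, beside 15.6% of genes.

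Of 16 other cytosolic J-domain genes, Dnajb5 rose (log2 fold change 0.52) and Dnajc13 fell (-0.72) with age, beside 9.05% and 8.38% of all genes. With aged IgG2a replicate 1 left out, 3 rose and 5 fell, among them Dnaja4 at -1.16, beside 22.1% and 23.5% of all genes. The most abundant, Dnaja1, was not called, at 0.16 and 0.04 without that library. Of 11 exchange factors 0 were called with age, beside 17.4% of genes. Without that library 4 fell (Hyou1 of the ER, Grpel1 and Grpel2 of mitochondria, and Bag2), beside 23.5% of genes. Of these 11, 5 rose with aPD1ab without that library, among them Bag1 at 0.58, beside 17.1% of genes, and 5 when aged aPD1ab replicate 2 was left out as well, beside 15.6%. Of 6 other small heat shock genes tested, 0 were called with age, beside 17.4% of genes. Without aged IgG2a replicate 1, 2 fell, Cryab at -0.44 and Hspb8 at -0.77, beside 23.5% of genes. A further list held other heat shock factors and genes named for binding such factors. Of the 5 tested, Hsf2bp, a gene at only 3.13 ± 0.731 CPM in young mice, fell at -1.53 with age (edgeR adjusted p = 0.0494), beside 8.38% of genes. Without aged IgG2a replicate 1 it fell at -2.39 (edgeR adjusted p = 0.000361), beside 23.5%. Without that library Hsf2bp (2.40, edgeR adjusted p = 0.0153) and Hsbp1 (0.50, edgeR adjusted p = 0.0342), which encodes a protein that binds HSF1, rose with aPD1ab. Both were also called when aged aPD1ab replicate 2 was left out with it (1.90 and 0.42), beside 15.6% of genes. Against young mice Hsbp1 was higher with aPD1ab, at 0.40 (edgeR adjusted p = 0.0235). Hsf2, the factor that pairs with HSF1, was at 0.02 with age.

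Of 19 chaperones and folding enzymes of the ER, 14 had a log2 fold change below 0 with age, while 53.7% of all genes were above 0. The calls depended on aged IgG2a replicate 1. With all libraries 2 rose and 1 fell, beside 9.05% and 8.38% of all genes, and the median log2 fold change was -0.21. Without that library 4 rose and 10 fell, beside 22.1% and 23.5% of all genes. The median was then -0.35, beside -0.01 over all genes. The 5 most abundant, Calr, P4hb, Pdia3, Canx and Hsp90b1, were all among the 10. Hsp90b1, which encodes GRP94, the HSP90 of the ER, was at 360 ± 51.2 CPM in young, 265 ± 34.7 in aged IgG2a and 287 ± 31.6 in aged aPD1ab mice. Its log2 fold change with age was -0.37 (SE 0.15, edgeR adjusted p = 0.102), or -0.46 without that library (edgeR adjusted p = 0.0139), and aPD1ab against IgG2a gave 0.10 at an adjusted p of 0.712. Erp29 and Txndc5, of the same list, rose with age, at 0.52 and 0.64.

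The unfolded protein response is run by sensors in the ER membrane and the factors and targets they switch on. Of 16 such genes 0 were called with age by edgeR, beside 17.4% of genes, and the median log2 fold change was 0.19. At an unadjusted p under 0.05, 3 were higher and 1 lower, beside 36.2% of genes in either direction. Without aged IgG2a replicate 1 the ER stress sensor Atf6 (0.31) and Edem1 (0.25) rose and Sesn2 (-0.59) fell with age, beside 22.1% and 23.5% of genes, and with aPD1ab Atf6 (-0.80), Ern1 (-0.73) and Edem1 (-0.36) fell, beside 13.2%. Of these 3, Atf6 (-0.71) and Ern1 (-0.66) were also called when aged aPD1ab replicate 2 was left out as well, beside 12.6% of genes. Against young mice aPD1ab gave 4 genes higher, among them Atf4 at 0.65 and Ddit3 at 0.59, and 2 lower, Atf6 at -0.50 and Ern1 at -0.53, beside 12.4% and 9.97% of genes.

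The mitochondrial chaperones had the largest median change of the chaperone lists in both comparisons with aged IgG2a, with and without replicate 1. Of 10 genes, 1 rose (the protease Htra2, 0.67) and 0 fell with age over all libraries, beside 9.05% and 8.38% of all genes. Their median log2 fold change was -0.35. In the fit of 3 aged IgG2a libraries, 8 fell and 1 rose, beside 23.5% and 22.1% of all genes, with a median of -0.59. Hspd1 (HSP60) was at 314 ± 41.6 CPM in young and 144 ± 29.1 in the 3 remaining aged IgG2a libraries (log2 fold change -1.05, edgeR adjusted p = 0.000323), and Hspa9 (mortalin) at 399 ± 40.5 and 223 ± 13.1 (log2 fold change -0.76, edgeR adjusted p = 0.000336). With aPD1ab against the same 3 libraries 8 rose, Hspa9 by 1.10 and Hspd1 by 1.03, beside 17.1% of genes called higher. When aged aPD1ab replicate 2, which had the highest sum of these genes, was left out as well, 8 rose, beside 15.6% of genes, Hspa9 by 0.91 and Hspd1 by 0.82. With all libraries 0 were called, beside 0% of genes, at 0.80 for Hspa9 (edgeR adjusted p = 0.129) and 0.72 for Hspd1 (edgeR adjusted p = 0.171). Proximal tubule markers, from cells rich in mitochondria, moved with these genes, as given above, and their part was not tested. Of 14 subunits of the CCT chaperonin and of prefoldin, 1 rose with age (Pfdn5, 0.49), beside 9.05% of genes, and against young mice aPD1ab gave 4 higher, all of them prefoldin genes, beside 12.4%.

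**Figure D5:**
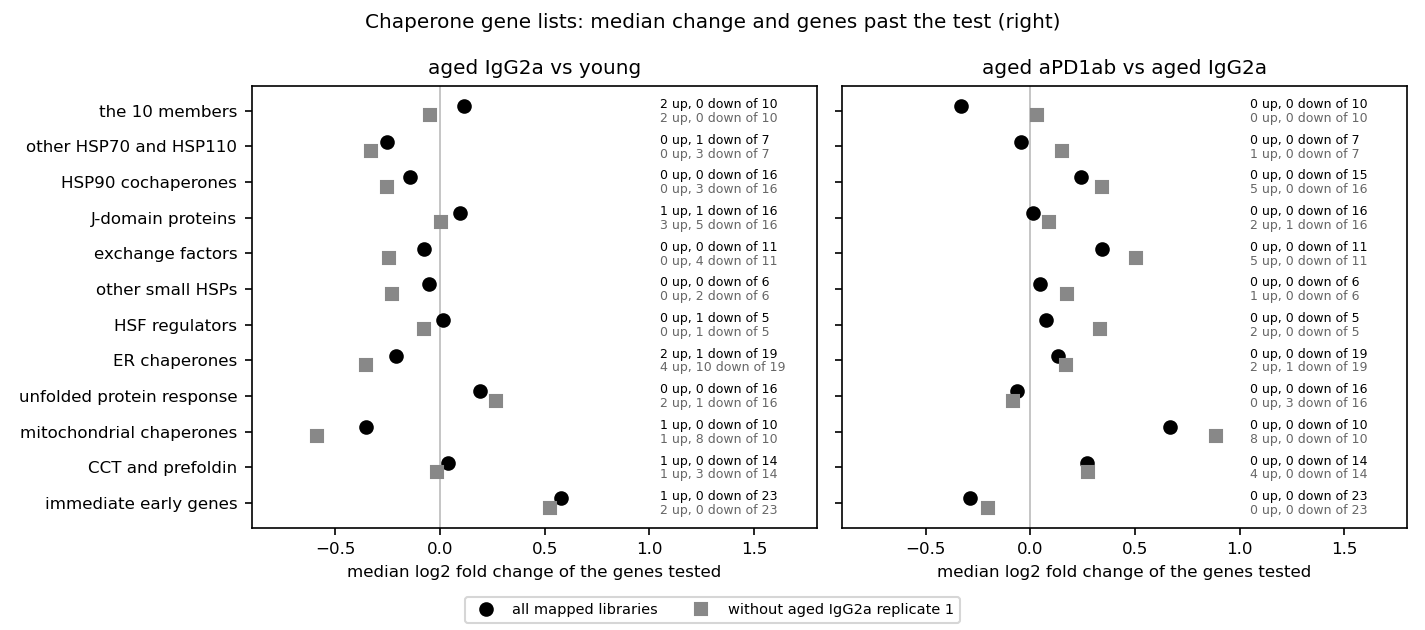
Median log2 fold change (x axis) of the genes tested in each list (y axis), in aged IgG2a against young and aged aPD1ab against aged IgG2a, for all mapped libraries (circles) and without aged IgG2a replicate 1 (squares), with the number past the edgeR test at the right. Mitochondrial chaperones lie at -0.35 and -0.59 with age and at 0.67 and 0.89 with aPD1ab.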

How the data were processed

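The authors deposited counts of reads per Ensembl gene, without normalization, made from TruSeq RNA libraries. The submitters' processing notes list HISAT2, featureCounts and mm10/GRCm38. Strand setting and the treatment of reads with several matches are not given in the sources used here. The columns carry numbers that differ from the sample titles, so 13 were tied to groups by the numbers in the published sample plot, and 2 columns were not used. Replicate numbers are names only.

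Groups were compared pairwise with edgeR 4.0.16 in R 4.3.3 (quasi-likelihood test, robust, TMM, filterByExpr), with Benjamini-Hochberg adjustment over all genes tested, and called at an adjusted p under 0.05. DESeq2 1.42.0 and limma 3.58.1 (voom with sample quality weights) were alternatives. The fit was tested on simulated data. Intervals are 95%. Levels are CPM, log2 values used a prior count of 2, and lengths and positions came from GENCODE M21. Whether the libraries came from separate sorting runs is not given, and p-values measure the spread between these mice. Totals cover counting error only, with a floor of 3 counts.

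The members and gene lists were chosen with earlier results of these data known. The text names the members, the most abundant genes of each list, called genes with the largest changes, and the 3 genes most correlated with each member, in part. The level of 1 further marker gene is not reported here.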

Additional observations from a re-analysis of the deposited data

Results flagged for a closer look

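Of 30 groups of values tested (10 members in 3 groups), 3 held a library far from the others by Dixon's criterion, where chance flags about 5% of groups. Young replicate 5 held 289 CPM of Hspa1a, where the nearest young library held 112 CPM. It also held 461 CPM of Hspa1b, where the nearest held 162 CPM. As the 2 genes share sequence and moved together, these are not independent flags. Without young replicate 5 the log2 fold change with age was 2.27 for Hspa1a (edgeR adjusted p = 0.023) and 2.41 for Hspa1b (edgeR adjusted p = 0.0205). For Hspa5, aged IgG2a replicate 4 held 365 CPM, where the nearest aged IgG2a library held 651 CPM. Without it the log2 fold change of Hspa5 was -0.05 with age and -0.11 with aPD1ab.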

How the results depend on the processing

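No paired analysis was possible because the columns carry no replicate numbers shared between groups. With age, 2 members were called (Hspa1a and Hspa1b), also with DESeq2, limma voom, RLE factors, 1 fit of all groups and a 2-fold limit, but 0 with no filter on low counts (adjusted p = 0.0567 and 0.0511), and 0 to 2 when 1 library was left out. With aPD1ab against aged IgG2a, 0 were called by edgeR, 1 by DESeq2, 2 by limma voom with quality weights and, in a setting chosen after seeing the data, 2 by DESeq2 without aged IgG2a replicate 1. Against young mice 0 were called in every setting run. The direction of Hspa1a and Hspa1b held in all settings for the comparisons with aged IgG2a. Of the values for single members, 16, 16 and 2 changed sign with age, with aPD1ab against IgG2a and against young, none of them called. When 1 library was left out, log2 fold changes with age ranged from -0.06 to 0.25 for Hspa8 (-0.02 and -0.05 without young replicates 1 and 2, -0.01 without aged IgG2a replicate 3) from -0.18 to 0.43 for Hsph1 (also -0.08), from -0.53 to 0.21 for Hspb1 (also 0.11, 0.15 and 0.08) and from -0.12 to 0.05 for Hsf1 (also 0.01, 0.01 and 0). DESeq2 without aged IgG2a replicate 1 gave -0.05 for Hspa8 and -0.17 for Hsph1. With aPD1ab against IgG2a, leaving out 1 library gave -0.11 to 0.16 for Hspa5 (also -0.06), -0.57 to 0.16 for Hspb1 and -0.12 to 0.12 for Hsp90ab1 (also 0.03, 0.07 and 0.04). Limma voom gave 0.03 for Hsp90ab1 and 0.06 for Hspb1, and 0.04 and 0.13 without that library. DESeq2 without it gave 0.1 and 0.14, edgeR without it and aged aPD1ab replicate 2 (also chosen after seeing the data) gave 0.1 and 0.35, and 1 fit of all groups 0 for Hsp90ab1. Against young mice limma voom gave 0.02 for Hsph1, and leaving out 1 library gave -0.01 to 0.8 for Hspa1a. The causes were not tested. With 4 or 5 libraries a group and the spread given above, the intervals of Hspa1a and Hspa1b spanned over 2 log2 units.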
